A study of Mus musculus with 13 samples.

Results

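The genes described here were 10 markers of the tissue that lines the ventricle beside the habenula: 6 of the choroid plexus epithelium (Ttr, Sostdc1, Kl, Folr1, Aqp1 and Clic6) and 4 of the ependyma (Foxj1, Tmem212, Ccdc153 and Rarres2). They were taken by symbol, and all 10 were among the 22682 gene symbols that the 13 libraries share. The material was medial habenula of adult mice over 8 weeks old, and every group carried the transgene Chat-TRAP DW167, with which cholinergic cells make a GFP-tagged ribosomal protein. Beads with anti-GFP purified the tagged polysomes (translating ribosome affinity purification, TRAP), giving 6 immunopurified (IP) libraries from mice with the transgene alone, here called wild type, and 6 from Gpr151-KO::Chat-TRAP DW167 mice, here called knockout. A single further library, numbered 824, came from the total RNA of the wild-type homogenate (the input), and no knockout input was analysed here. Each library pooled 4 mice, or 3 mice for those numbered 852 and 855, so the 6 libraries of a genotype were separate pools rather than single animals. The tag follows the expression of the transgene, and whether every cholinergic neuron or any other cell carried it was not measured in these files.

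The choroid plexus is a folded epithelium that secretes cerebrospinal fluid and passes hormones, vitamins and ions between blood and ventricle. The ependyma is the neighbouring ciliated cell layer, whose beating cilia move that fluid along the ventricle wall. The medial habenula lies directly under this lining, so the lining can come along with dissected tissue.

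Promoter sequence from RefSeq on GRCm38.p6 was matched for 4 of the 10 genes (Kl, Aqp1, Tmem212 and Ccdc153). The 250 bases before the start site are printed for Ccdc153 and Tmem212, the ependymal pair whose levels moved most closely together over the IP libraries (below). Capitals mark GTTGCC, a core of the sites bound by RFX factors, which drive genes of motile cilia. Ccdc153 lies on the plus strand at chr9:44240427-44240676 and Tmem212 on the minus strand at chr3:27896369-27896618, both read 5′ to 3′ along the gene.
Ccdc153: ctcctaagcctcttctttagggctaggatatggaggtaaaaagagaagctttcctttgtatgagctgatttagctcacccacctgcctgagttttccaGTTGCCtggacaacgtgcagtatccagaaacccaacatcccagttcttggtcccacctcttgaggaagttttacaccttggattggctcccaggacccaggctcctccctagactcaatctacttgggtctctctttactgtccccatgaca
Tmem212: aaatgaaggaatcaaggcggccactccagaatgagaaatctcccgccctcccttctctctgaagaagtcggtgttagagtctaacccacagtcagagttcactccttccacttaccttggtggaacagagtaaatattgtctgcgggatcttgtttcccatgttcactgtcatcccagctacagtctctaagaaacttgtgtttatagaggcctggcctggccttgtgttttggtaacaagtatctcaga

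Searched on both strands, GTTGCC lay in the Ccdc153 window 152 bases before the start site and in the Aqp1 window 111 bases before it, while the windows of Tmem212 and Kl did not hold these letters. Over all 27025 genes with such a window, 11.8% held GTTGCC. In a wider list of ependymal and motile cilium genes the motif was present in 16 of 38 genes (42.1%), among them Drc1, Dynlrb2, Hydin and Pifo. A wider list of choroid plexus genes had it in 4 of 23 (17.4%). Neither the forkhead motif GTAAACA, found in 3.54% of all genes, nor the OTX motif TAATCC, found in 7.21%, was in any of the 4 windows, so no overlap between motifs arose in them. These matches describe letters in a window and say nothing about binding.

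Reads assigned to genes numbered 28375912 to 58502055 per wild-type IP library, 32623249 to 64388596 per knockout IP library and 54701790 in the input. Levels are given in CPM, counts scaled to the library total over the shared symbols, and a count of 0 allows up to 3 counts, equal to 0.0502 to 0.121 CPM per IP library and 0.0680 CPM in the input, counting error only. Gpr151, the receptor targeted in the knockout, stood at 382 to 589 CPM in wild-type and 121 to 212 CPM in knockout IP libraries, so the genotypes did not overlap. The IP libraries fell into 3 sets by library number (682 and 683, 852 and 855, and the 8 from 1091 to 1102), each with both genotypes. Libraries 1099 and 1102 (knockout) and 1091 (wild type) stood apart by their glial transcripts. The summed CPM of 8 astrocyte markers was 1768 in library 1099, 1046 in 1102 and 976 in 1091, against 154 to 510 in the other 9 IP libraries and 2135 in the input.

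Sostdc1, which encodes a secreted antagonist of BMP and Wnt signalling, was the only one of the 10 genes above the input in all 12 IP libraries. The gene lies at chr12:36314139-36318452 on the plus strand, with 1781 exonic bases in 2 exon blocks. The input held 343 counts, or 7.78 CPM (95% exact Poisson interval 6.98 to 8.64). Wild-type IP libraries ran from 44.1 CPM (library 1091) through a median of 66.0 to 76.3 CPM (library 852), and knockout libraries from 32.6 CPM (library 1099) through 56.8 to 88.8 CPM (library 855). Every IP library was therefore above the input, and the genotypes overlapped over most of their range. The level was the steadiest of the 10, with a highest IP library 2.72 times the lowest.

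Ttr encodes transthyretin, the carrier of thyroxine and of retinol-binding protein, and is the classical product of the choroid plexus. It lies on chromosome 18 from 20665280 to 20674321. The input held 608 counts, or 13.8 CPM (12.7 to 14.9). In wild-type IP libraries Ttr ran from 0.0402 CPM (1 count, library 852) through a median of 0.536 to 0.846 CPM (48 counts, library 1091). In knockout libraries it ran from 0.463 CPM through a median of 0.751 to 19.0 CPM. The wild-type libraries were all far below the input. Among the knockout libraries 4 were as low, between 0.463 and 0.756 CPM, while library 1099 had 7.93 CPM (368 counts) and library 1102, with 974 counts, was above the input itself. The highest IP library was 471 times the lowest, which held 1 count. No other gene with counts in every IP library spanned so wide a range. Folr1, Aqp1 and Rarres2 were at 0 in some IP library and have no such ratio.

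Clic6, a member of the chloride intracellular channel family, had 4.13 CPM in the input (182 counts, 3.55 to 4.77). Wild-type IP libraries ran from 0.0402 CPM (1 count, library 852) through 0.492 to 1.74 CPM (99 counts, library 1091). Knockout libraries ran from 0.100 CPM through 0.741 to 3.41 CPM (158 counts, library 1099), with library 1102 second at 2.18 CPM. All IP libraries lay below the input and the genotypes overlapped. The 3 highest libraries were 1099, 1102 and 1091, those with the highest astrocyte sums.

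Kl encodes klotho, the membrane protein that makes FGF receptors responsive to FGF23. Its input level was 1.09 CPM (48 counts, 0.802 to 1.44). Wild-type IP libraries ran from 0.317 through 0.605 to 1.27 CPM (46 counts, library 682), and knockout libraries from 0.142 through 0.532 to 5.12 CPM (263 counts, library 1102). Wild-type libraries thus straddled the input, 3 knockout libraries lay below all wild-type ones, and library 1102 lay above everything else. The next knockout library, 1100, had 0.988 CPM, so Kl in library 1102 did not follow library 1099, where it was 0.862 CPM.

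The folate receptor gene Folr1 and the water channel gene Aqp1 were too low to compare. Folr1 had 24 counts in the input (0.544 CPM, 0.349 to 0.810), 4 to 20 counts per wild-type and 0 to 12 counts per knockout IP library. Aqp1 had 8 counts in the input (0.181 CPM, 0.0783 to 0.357), no count in 8 of the 12 IP libraries and at most 4 counts in the rest. Folr1 overlaps the gene Anapc15 on the opposite strand, but they share no exonic bases in the annotation used.

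Foxj1, the transcription factor that switches on the programme of motile cilia, was the most evenly detected of the ependymal genes in the IP libraries. It lies at chr11:116330704-116335399 on the minus strand, with 2623 exonic bases. The input held 710 counts, or 16.1 CPM (14.9 to 17.3). Wild-type IP libraries ran from 1.09 CPM (54 counts, library 1092) through 3.51 to 3.90 CPM, and knockout libraries from 1.61 CPM (library 1100) through 4.72 to 6.76 CPM (268 counts, library 683). All 12 lay below the input, and 4 of the 6 knockout libraries lay above every wild-type one while the lowest knockout library was below 5 of the 6 wild-type ones. Library 683, with the maximum of Foxj1, had an astrocyte sum of 157 CPM, the second lowest of the 12. The next highest levels of Foxj1 were in libraries 1099 (4.96 CPM) and 1102 (4.88 CPM), those with the highest astrocyte sums.

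Ccdc153, a coiled-coil protein of motile cilia, and Tmem212, a membrane protein whose transcript marks ependymal cells, fell further below the input. Ccdc153 had 15.5 CPM in the input (682 counts, 14.3 to 16.7). Wild-type IP libraries ran from 0.161 CPM (4 counts, library 852) through 1.05 to 1.5 CPM (library 1091), and knockout libraries from 0.871 CPM through 1.79 to 3.60 CPM (167 counts, library 1099). For Ccdc153 too, 4 of 6 knockout libraries were above all wild-type ones. Tmem212 had 6.42 CPM in the input (283 counts, 5.69 to 7.21). It ran from 0.101 through 0.199 to 0.476 CPM in wild-type and from 0.0756 CPM (3 counts, library 683) through 0.433 to 1.12 CPM (52 counts, library 1099) in knockout IP libraries. Its genotypes overlapped, with 2 knockout libraries above all wild-type ones and 1 below them.

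Rarres2 encodes chemerin, a secreted chemoattractant protein. The input had 2.24 CPM (99 counts, 1.82 to 2.73). Wild-type IP libraries ran from 0 (library 852) through 0.395 to 0.997 CPM (36 counts, library 682), and knockout libraries from 0.0504 CPM (2 counts, library 683) through 0.297 to 0.841 CPM (library 1099). The 2 libraries of the set 682 and 683 held the highest and the second lowest IP level. Rarres2 shares 892 exonic bases, 33.6% of its own, with Lrrc61 on the opposite strand, which had 54.7 CPM in the input and 116 CPM on average in wild-type IP libraries. No source used here says whether counting was strand-specific, so the reads of this pair may not be separable.

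**Figure D1:**
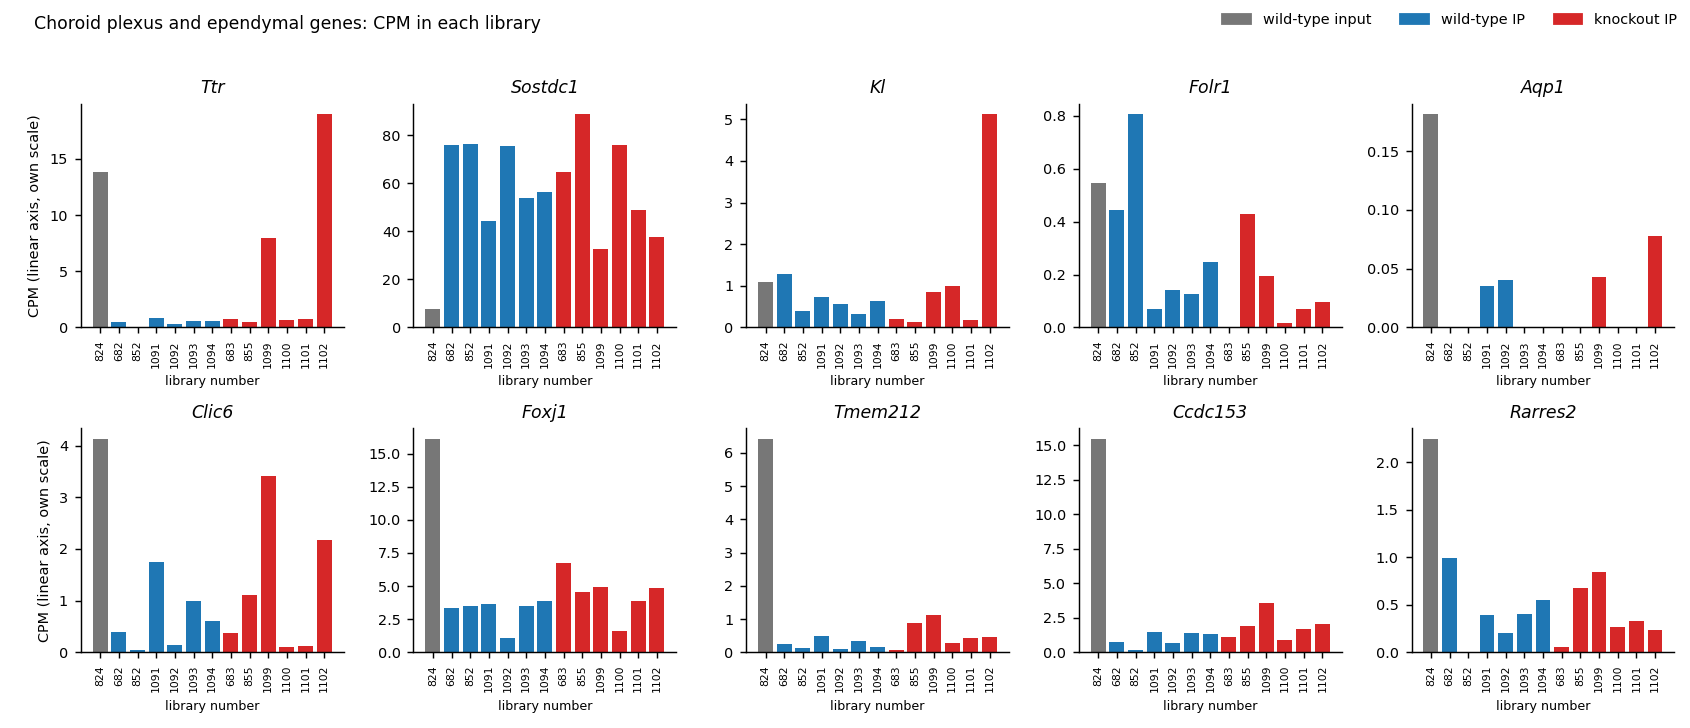
CPM of each of the 10 genes (vertical axis, linear, with its own scale per panel and starting at 0) in each library (horizontal axis, library number). Grey is the wild-type input, blue the 6 wild-type and red the 6 knockout IP libraries. Sostdc1 stands between 32.6 and 88.8 CPM in the IP libraries against 7.78 CPM in the input, and Ttr exceeds 1 CPM in IP libraries 1099 and 1102 alone.

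Divided by exonic length, the input and the IP libraries ordered the genes differently. In the input the levels per kilobase were 11.6 CPM for Ttr, 8.96 for Tmem212, 7.59 for Ccdc153, 6.14 for Foxj1 and 4.37 for Sostdc1, with the other 5 genes at 0.0690 to 1.05. In wild-type IP libraries Sostdc1 came first with a mean of 35.8 CPM per kilobase and Foxj1 second with 1.21. Ccdc153 (0.476), Ttr (0.398) and Tmem212 (0.334) followed and differed from each other by less than the SD of any of them, and so did Clic6 (0.166), Rarres2 (0.159) and Folr1 (0.133). In knockout IP libraries Sostdc1 again came first, with 32.6 CPM per kilobase. The mean of Ttr there, 4.15, rested on libraries 1099 and 1102.

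The comparison of IP with input asks which transcripts were carried by tagged ribosomes. By this measure Sostdc1 was enriched, while Ttr, Ccdc153, Tmem212 and Foxj1 were depleted in wild-type IP libraries. After 1 CPM was added to every level, enrichment was called where all 6 wild-type IP values were at least 2 times that of the input, and depletion where the input was at least 2 times all 6. Genes had to reach 5 CPM, either in the input or on average over wild-type IP. Of 11434 genes at that level, 538 (4.71%) were enriched and 1274 (11.1%) depleted. Of the 10 genes, 5 reached it: Sostdc1 was enriched and the other 4 depleted. Ttr, Foxj1, Tmem212 and Ccdc153 reached it through the input alone and so had to come out low, which means that their count adds nothing to their values. With 1 input library the rule has no replicate check on the input side.

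The median log2 ratio of wild-type IP over input was 2.92 for Sostdc1, with single libraries from 2.36 to 3.14. It was -3.27 for Ttr (-3.83 to -3.00), -3.02 for Ccdc153 (-3.83 to -2.72), -2.63 for Tmem212 (-2.75 to -2.33) and -1.92 for Foxj1 (-3.03 to -1.80). These ratios carry the added 1 CPM and understate the change of low genes. As plain percentages of the input CPM, the wild-type mean was 819% for Sostdc1, 19.7% for Foxj1, 6.26% for Ccdc153, 3.72% for Tmem212 and 3.42% for Ttr. The ependymal regulator Foxj1 thus kept a larger share of its input level than the other 2 depleted ependymal genes in each of the 12 IP libraries.

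The other 5 genes stayed under 5 CPM and were not called. Clic6 had a median log2 ratio of -1.78 and 15.8% of the input level, and Rarres2 -1.22 and 18.8%, both below the input in all 12 IP libraries. Kl had -0.38 with 60.4% and Folr1 -0.37 with 56.2%, each with at least 1 wild-type library above the input. Aqp1, at 6.94% of 8 counts, cannot be read.

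Knockout IP libraries, set against the same wild-type input, had medians of 2.71 for Sostdc1, -3.08 for Ttr, -2.56 for Ccdc153, -2.37 for Tmem212 and -1.58 for Foxj1. Both genotypes share this input, so the 2 sets of ratios are not independent. Sostdc1 was above the input in all 6 knockout libraries, and Ccdc153, Tmem212 and Foxj1 were below it in all 6. Ttr was at 3.36% to 5.49% of the input in 4 knockout libraries, at 57.5% in library 1099 and at 138% in library 1102. In an edgeR quasi-likelihood model of all 13 libraries that lends the input the spread of the IP libraries, wild-type IP differed from input for Sostdc1 by 3.20 ± 0.55 (log2, SE, adjusted p = 0.00164) and for Tmem212 by -4.53 ± 0.85 (adjusted p = 0.00264). The same model gave -3.81 ± 0.69 for Ccdc153 (adjusted p = 0.00230), -2.18 ± 0.54 for Foxj1 (adjusted p = 0.0136) and -4.66 ± 1.33 for Ttr (adjusted p = 0.0279), and did not call Clic6, Rarres2 or Kl. It called 8.44% of 14247 genes higher and 9.11% lower in wild-type IP.

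**Figure D2:**
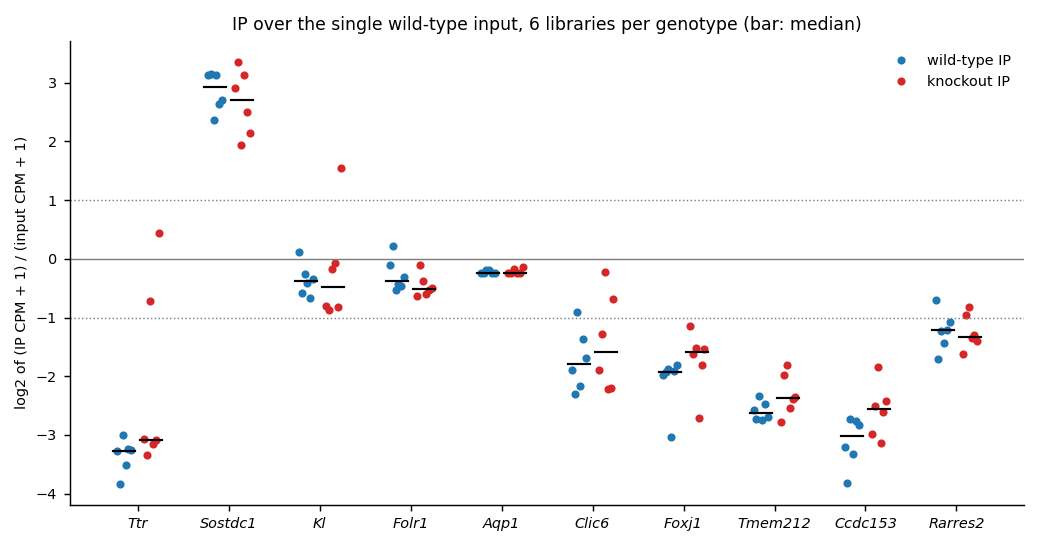
Log2 ratio of IP over input CPM, each with 1 CPM added (vertical axis), for the 10 genes (horizontal axis), with 1 point per IP library and a bar at the median of 6. Dotted lines mark a ratio of 2 in either direction. All 12 points of Sostdc1 lie above the upper line, the wild-type points of Ttr, Foxj1, Tmem212 and Ccdc153 lie below the lower one, and 2 knockout points of Ttr (-0.73 and 0.43) stand away from the rest.

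Of 26 further choroid plexus symbols, 25 were in all tables and 9 reached 5 CPM, 2 of them through the input alone. Of the 9, 1 was enriched and 3 were depleted, beside 4.71% and 11.1% of all genes. Their median log2 ratio was -1.18, against -0.07 over all genes. Without the minimum the median of the 25 was -0.49, against 0 over all genes. The enriched gene was Otx2, a homeodomain factor needed for choroid plexus development, which had 29.95 CPM in the input, a mean of 84.9 CPM in wild-type IP libraries and a log2 ratio of 1.47. The depleted genes were those of the prolactin receptor Prlr (-2.92), the calmodulin-like Calml4 (-2.44) and the anion exchanger Slc4a2 (-1.18), of which Prlr and Calml4 reached 5 CPM through the input alone and so had to come out low. The autotaxin gene Enpp2 had a median of -2.61 but was not called because its wild-type libraries ran up to -0.77. Cab39l (0.27) and Slc29a4 (-0.13) were next below Otx2.

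Of 46 further ependymal and motile cilium symbols, which include older names of genes already listed, 42 were in all tables and 21 reached 5 CPM, 12 of them through the input alone. None was enriched and 6 were depleted, beside 4.71% and 11.1% of all genes, with a median of -1.35, and -1.17 without the minimum. All 6 depleted genes reached the minimum through the input alone, so their number adds nothing to their values. The depleted genes were the dynein subunits Dynlrb2 (-3.32) and Dnali1 (-2.70), then Lrrc23 (-2.46), Odf3b (-2.20), Pifo (-1.77) and Cfap126 (-1.53). The adenylate kinase gene Ak7 had a median of -2.58 with libraries up to -0.31 and was not called. At the other end stood Drc1 (0.03) and Iqcg (-0.03), both of the complex that links axonemal dyneins, and Nme5 (-0.35), all close to the input level. For comparison, all 8 markers of cholinergic habenula neurons were enriched (median 3.20), beside 4.71% of all genes. Of the astrocyte markers 6 of 8 (median -3.12) and of the oligodendrocyte markers 8 of 8 (median -3.53) were depleted, beside 11.1% of all genes. Among these depleted markers, 4 of astrocytes and 2 of oligodendrocytes reached 5 CPM through the input alone and so had to come out low.

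**Figure D3:**
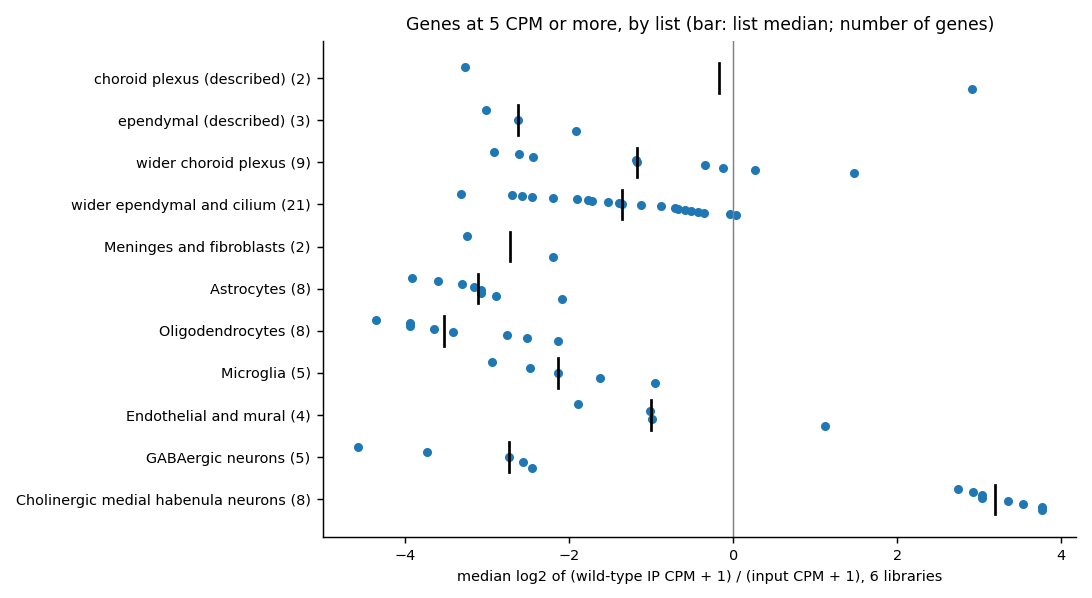
Median log2 ratio of wild-type IP over input over 6 libraries (horizontal axis), 1 point per gene at 5 CPM or more, by gene list (vertical axis, with the number of genes), and a black bar at each list's median. Sostdc1 at 2.92 lies within the range of the cholinergic genes, and Otx2 at 1.47 is the highest point of the wider choroid plexus list.

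Across the IP libraries, the 10 genes did not rise and fall as 1 group. Ranks were read for 8 of them, leaving out Folr1 and Aqp1 for their low counts. Library 1099 ranked first for Clic6, Tmem212 and Ccdc153 and among the top 3 for 6 of the 8 genes. Library 1102 ranked first for Ttr and Kl and among the top 3 for 5. Sostdc1 ran the other way: its 3 lowest libraries were 1099 (32.6 CPM), 1102 (37.7 CPM) and 1091 (44.1 CPM), which were also the 3 lowest for the summed cholinergic markers (3342, 3852 and 4468 CPM, against 5153 to 7538 CPM in the other 9). Relative to the input, Sostdc1 stood at 419% to 1141% and the cholinergic sum at 560% to 1263% over the 12 libraries.

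The counts of the choroid plexus genes also differed between the 2 libraries rich in Ttr. The input held 608 counts of Ttr, 182 of Clic6, 48 of Kl and 24 of Folr1. Library 1099 held 368, 158, 40 and 9 counts of the same genes, and library 1102 held 974, 112, 263 and 5. Kl thus had more counts than Clic6 in library 1102 and fewer in library 1099 and in the input, while Ttr had more in each. These counts are not divided by exonic length (9328 bases for Kl, 3914 for Clic6). They therefore do not rank the levels of these genes within a library.

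Transcripts of other cells were also highest in these libraries. The summed oligodendrocyte markers reached 1379 CPM in library 1099, 1010 CPM in 1102 and 718 CPM in 1091, against 144 to 533 CPM in the other 9. The summed markers of meninges and fibroblasts, led in the input by Igf2 and Dcn, were 24.2 CPM in library 1102, 20.9 CPM in 1099 and 1.59 to 8.32 CPM elsewhere, and 5 of the 10 meningeal genes were at 0 in at least 1 IP library. None of the 8 astrocyte markers and none of the 8 oligodendrocyte markers was at 0 in any IP library. The part of such material in the levels of Ttr, Clic6, Tmem212 and Ccdc153 was not tested.

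**Figure D4:**
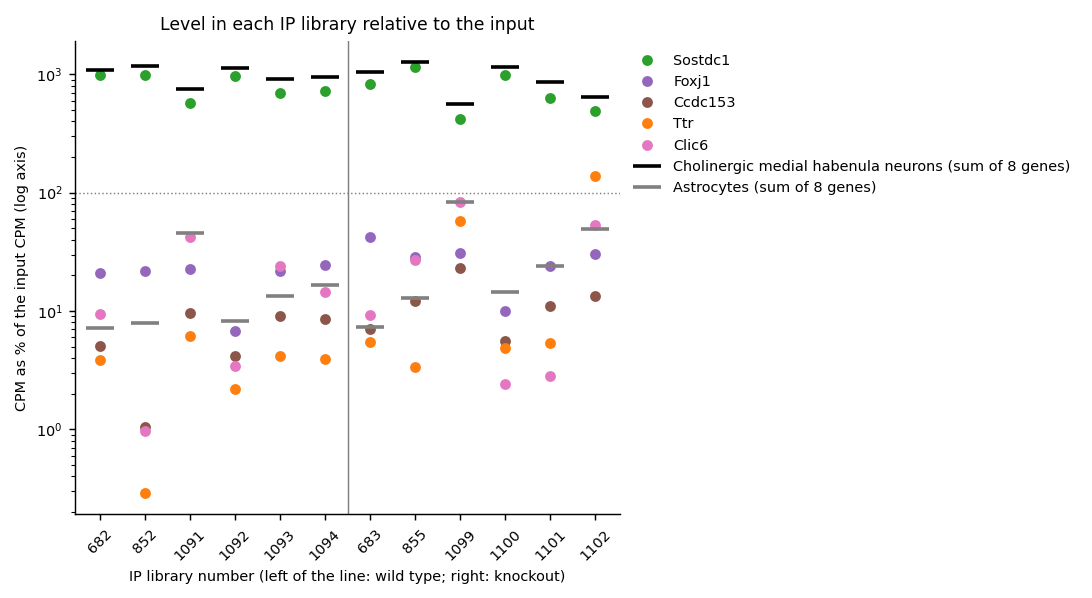
Level of 5 of the genes, and of the summed astrocyte and cholinergic markers (8 genes each, horizontal strokes), as a percentage of the input CPM (vertical axis, log scale) in each IP library (horizontal axis, library number, wild type left of the line). Sostdc1 stays beside the cholinergic sum, from 419% in library 1099 to 1141% in library 855, while Ttr goes from 0.292% in library 852 to 138% in library 1102.

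As a description of likeness, log2 CPM was correlated over the 12 IP libraries after removing the means of the library sets, which leaves depth and tissue makeup shared by all genes. Among 14316 genes, those most like Sostdc1 were Chrnb4 (r = 0.990), the nicotinic receptor subunit of these neurons and one of the cholinergic markers, then Fam96a (0.986) and Tma7 (0.983). Those most like Ttr were Pkp4 (0.958), Shank3 (0.956) and Mb21d2 (0.955). Foxj1 was most like Ngef (0.982), Tmem132e (0.961) and Smtn (0.951), and Ccdc153 most like Wnt9a (0.968), Lgr5 (0.966) and Nhs (0.951). None of these apart from Chrnb4 was in a list used here. Among the 8 of the 10 genes with enough counts (all but Folr1 and Aqp1) the closest pair was Tmem212 with Ccdc153 (r = 0.837), and the most opposed was Sostdc1 with Foxj1 (r = -0.858). Ttr, Clic6, Foxj1, Tmem212 and Ccdc153 were all positively correlated with each other (r = 0.515 to 0.837). With Sostdc1 they were all negative (-0.858 to -0.571). Their r ran from -0.071 to 0.552 with Kl and from 0.117 to 0.714 with Rarres2. High values are common among the best of so many genes over 12 libraries, and they carry no test.

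The comparison of genotypes asks whether loss of Gpr151 changed the transcripts in the purified fraction. None of the 10 genes was called. edgeR tested 8 of them among 14317 genes, since Folr1 and Aqp1 were below its count minimum, and called 0 of the 8 at an adjusted p of 0.05. Over all genes it called 2 (0.014%), 1 higher and 1 lower in knockout (0.00698% each). DESeq2 also called 0 of the 8 and 12 genes in all (0.0838%). Under an unadjusted p of 0.05 each tool had 2 of the 8, Ttr and Ccdc153, against 438 of all genes (3.06%) by edgeR and 653 (4.56%) by DESeq2. In IP libraries from pooled tissue, a difference in the cells of a type and one in RNA per cell cannot be told apart.

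Ttr had the largest difference, 3.19 ± 0.91 higher in knockout (log2, SE, 95% interval 1.22 to 5.16), with an edgeR adjusted p of 0.999 and a DESeq2 adjusted p of 0.143. The mean was 4.92 ± 7.47 CPM (SD, n = 6) in knockout and 0.472 ± 0.273 CPM (SD, n = 6) in wild type. Without libraries 1099 and 1102 the difference fell to 0.75, and without library 1102 alone to 2.24. Within the library sets Ttr was higher in knockout by 0.49 (682 and 683), 2.53 (852 and 855) and 2.42 (the 8 later libraries) on the log2 CPM scale. The values of 0.49 and 2.53 compare a single library per genotype, and library 852 held 1 count of Ttr. Summed astrocyte markers had a median of 409 CPM in knockout against 231 CPM in wild-type IP libraries, with all 8 genes above 0 in log2 fold change, and their part in the difference of Ttr was not tested.

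Ccdc153 was 1.08 ± 0.46 higher in knockout (95% interval 0.07 to 2.09, edgeR adjusted p = 0.999), with 1.87 ± 0.967 CPM (SD, n = 6) against 0.969 ± 0.528 CPM (SD, n = 6). Its direction was the same within the 3 library sets (0.47, 3.20 and 0.67), and without libraries 1099 and 1102 it was 0.73. Foxj1 was 0.48 ± 0.35 higher (-0.28 to 1.24) and likewise higher within each set (1.01, 0.36 and 0.39). Tmem212 was 1.00 ± 0.64 higher (-0.39 to 2.38) but lower by 1.27 in the set 682 and 683. None of these differences passed the test.

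Sostdc1 had the narrowest interval. Its difference was -0.15 ± 0.19 (95% interval -0.57 to 0.27), from 63.7 ± 14.0 CPM (SD, n = 6) in wild type and 58.1 ± 22.2 CPM (SD, n = 6) in knockout, and the sets differed in sign (-0.22, 0.20 and -0.26). Without libraries 1099 and 1102 it was 0.05. The intervals of Clic6 (1.03 ± 0.92, -0.97 to 3.04), Kl (0.71 ± 0.89, -1.22 to 2.64) and Rarres2 (0.11 ± 0.83, -1.70 to 1.91) were several times wider. Kl changed sign to -0.45 without library 1102, and without both 1099 and 1102 Kl was at -0.72, Clic6 at -1.0 and Rarres2 at -0.34. Without the count minimum Folr1 stood at -1.17 (edgeR adjusted p = 0.986) and Aqp1 at 0.54 (edgeR adjusted p = 0.991).

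The median log2 fold change of the 8 genes was 0.85, with 7 above 0 and 1 below, against 0.00 over all genes. Without libraries 1099 and 1102 it was 0.13, with 5 above 0 and 3 below. Markers of other cells mostly stood above 0 too: the median was 1.26 for GABAergic neurons (6 of 6 tested above 0, each with an unadjusted edgeR p under 0.05 and none called), 1.06 for meninges and fibroblasts (5 of 5), 0.86 for astrocytes (8 of 8) and 0.81 for oligodendrocytes (8 of 8). For endothelial and mural cells it was 0.44 (6 of 7) and for microglia 0.37 (6 of 7). The 8 cholinergic markers all stood below 0, with a median of -0.16. Of the wider choroid plexus genes 14 were tested, 9 above 0 and 5 below (median 0.24), and those with the smallest p were Otx2 (-0.29), Prlr (1.00) and Slc12a2 (0.42). Of the wider ependymal and cilium genes 37 were tested, 30 above 0 and 7 below (median 0.20), and those with the smallest p were Sntn (1.98), Odf3b (1.21) and Dnaic1 (0.63). None of either list was called by edgeR or DESeq2. By edgeR 1 gene of each list had an unadjusted p under 0.05, and by DESeq2 2 of each, beside the 3.06% and 4.56% of all genes. The difference between genotypes was also compared between the 4 earlier and 8 later libraries. In that interaction edgeR and DESeq2 called 0 of the 8 genes, and 0 (0%) and 2 (0.014%) of all 14317. By each tool 1 of the 8, Kl by edgeR (3.84, adjusted p = 1), had an unadjusted p under 0.05, against 325 of all genes (2.27%) by edgeR and 463 (3.23%) by DESeq2.

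**Figure D5:**
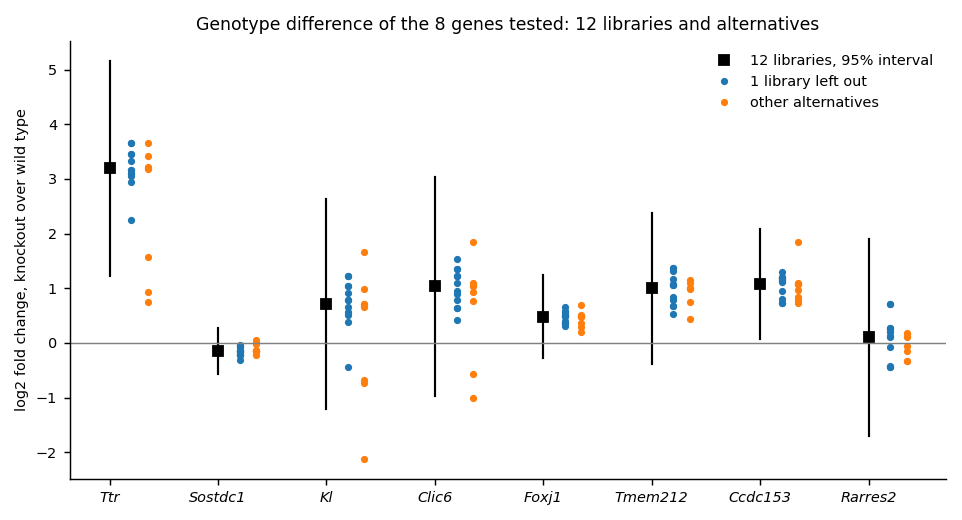
Log2 fold change of knockout over wild type (vertical axis) for the 8 genes tested (horizontal axis). Black squares are the edgeR values over 12 libraries with their 95% intervals, blue points leave out 1 library each and orange points are the other alternatives. Ttr stays above 0 but ranges from 0.75 to 3.66, and Kl, Clic6, Rarres2 and Sostdc1 have points on both sides of 0.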

How the data were processed

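The authors deposited raw, unnormalized counts by gene symbol in a table for each library. The submitters' processing notes name mm10 and the tools DESeq2, HTSeq and STAR 2.3.0e, while the annotation, strand setting and filters were not given in the sources used here. Per the labels' protocols, RNA was amplified into cDNA before library preparation. The lists of symbols differed between libraries, with 37328 in the input and 32531 or 24454 in the IP libraries. CPM therefore used the 22682 symbols shared by 13 libraries, and genotype the 23857 shared by the 12 IP libraries. Any effect of these lists on how reads were assigned to genes was not tested. Summary lines and a line without a gene name were left out. In the IP libraries, 9.44% to 16.6% of alignments fell outside genes and 25.2% to 53.2% were not unique. Between 0.581% and 1.36% (input 3.98%) were ambiguous between genes. The share outside genes was highest in libraries 1099 (16.6%), 1091 (13.2%) and 1102 (10.7%), followed by 1100 (10.5%).

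Genotype was tested with edgeR 4.0.16 in R 4.3.3 (filterByExpr, minimum count 10, TMM, robust quasi-likelihood test, two-sided, library set as a covariate, Benjamini-Hochberg adjustment over 14317 genes), and with DESeq2 1.42.0 as an alternative. Log2 CPM used a prior count of 2. The comparison of IP with the single input used the rule of size given in the text. The code of the genotype fits was tested on simulated counts with the same spread for every gene and no effect of library set. The comparison of IP with input was not tested in this way. Positions came from GENCODE M21 on GRCm38. Replicate numbers followed accession order and pair no samples. Names of most deposited tables mention saline, and that of the input saccharin too, but groups follow the labels, which give no treatment.

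The 10 genes and all lists were chosen with earlier results of these data known. The text gives every one of the 10 genes. For each wider list it names the 3 highest and 3 lowest by median IP over input ratio and the 3 with the smallest genotype p. Slc4a2, Lrrc23, Odf3b (as a depleted gene), Pifo, Cfap126 and the genes given as examples for GTTGCC fall outside that rule and were named after their values were seen. For likeness it names the 3 genes of highest r for each of the 10 with a mean of at least 1 CPM in the IP libraries.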

Additional observations from a re-analysis of the deposited data

Results flagged for a closer look

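In each group of 6 libraries, the highest and lowest values of each of the 10 genes were screened for a gap to the nearest other library that exceeded Dixon's 95% critical value as a share of the group's range, which chance exceeds in about 1 in 20 groups. Of 20 groups screened, 2 had such a library. Kl had 5.12 CPM (263 counts) in knockout library 1102, far above the next knockout library at 0.988 CPM. Foxj1 had 1.09 CPM (54 counts) in wild-type library 1092, far below the next wild-type library at 3.35 CPM. The cause of either value was not tested.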

How the results depend on the processing

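The 1 enriched and 4 depleted genes stayed the same in number under the 13 alternatives run (pseudocounts of 0.5 and 2, no filter, other scalings, the edgeR model with pooled spread, each wild-type library left out). Leaving out a wild-type library or the filter could only add genes, since the rule asks every library to pass. For those alternatives the unchanged calls are therefore no check. The count of 0 genes called between genotypes was the same under 21. Ccdc153 and Foxj1 kept their direction between genotypes under 21 alternatives, Ttr under the 20 and Tmem212 under the 19 that gave them a value, with Ttr between 0.75 and 3.66 (edgeR or DESeq2 adjusted p 0.143 to 1.00). The following changed sign, none of them called in any fit, and the cause was not tested. Rarres2 was at -0.057 without the library set as a covariate. In the 4 earlier libraries alone Kl was at -2.12 and Rarres2 at -0.15. Without libraries 1091, 1099 and 1102 Kl was at -0.68, Clic6 at -0.58 and Rarres2 at -0.32. Without libraries 1099 and 1102, an alternative chosen after seeing the data, Kl was at -0.72, Clic6 at -1.0, Rarres2 at -0.34 and Sostdc1 at 0.055. Leaving out 1 library at a time, Kl ran from -0.45 to 1.23 and Rarres2 from -0.45 to 0.71. No paired analysis was possible because the labels give no replicate numbers shared by the genotypes, although the fits had a term for library set, in which 682 with 683 and 852 with 855 stand together. The limits lie in the single input library and its different list of symbols, in pooled animals and in depth. Aqp1 and Folr1 had at most 20 counts per IP library. Ttr, Clic6, Kl, Rarres2, Tmem212 and Ccdc153 mostly had under 60.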
